A study of Homo sapiens with 24 samples.

Results

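Constitutive m6A peaks were defined here as peaks of human pluripotent stem cells (hPSC) that were found again at 3 later stages, definitive endoderm (DE), the pancreatic progenitor stage (PP) and islet-like organoids (hILO). A peak of the hPSC list was eligible with at least 50 input reads. It was called constitutive when peaks of each of the other 3 lists, read strand by strand, covered more than 50% of its span. The rule was met by 6665 of 21048 eligible peaks, of 36659 hPSC peaks and of 228472 peaks in all 6 lists, and these 6665 peaks lay on 4547 genes. The rule therefore held for 31.7% of the eligible peaks, and 43.9% of the 10359 genes with an eligible peak carried a constitutive one. The set depended on the strictness of peak calling: with p below 1e-05 in all lists, the limit named in the methods but not applied throughout the lists, 3777 peaks (19.8%) met the rule.

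The data were m6A-seq of the human embryonic stem cell line MEL1, in the form MEL1 INSGFP/W, which carries a GFP reporter at the insulin gene. An antibody to N6-methyladenosine (m6A) precipitates RNA fragments (IP), which are sequenced beside the unprecipitated fragments (input). The 4 stages came from stepwise differentiation of these reporter cells, with ALKBH5 unedited. Activin A and CHIR99021 led to DE, and KGF, retinoic acid, LDN-193189, GDC-0449, EGF and vitamin C to PP. T3, heparin, zinc sulfate, 616452 and compound E with LDN-193189 and vitamin C led to hILO. Wild-type PP (WT PP) and PP lacking ALKBH5, a demethylase of m6A (A5-KO PP), were prepared by the same route in a second experiment. The A5-KO line was derived from these cells with CRISPR-Cpf1 aimed at the first exon of ALKBH5. Each of the 6 populations was sequenced as 2 IP and 2 input libraries (24 overall) that the authors merged into 1 peak list, so no value per library was used and no difference below has a replicate check. The second experiment started from total RNA in place of mRNA, with rRNA depletion of the input and another library kit, and these cannot be told apart from the experiment itself. Neither list of the second experiment entered the rule.

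The labels were checked against marker genes by whether each list held a peak on them. Of 5 markers per stage, 4 had a peak in the hPSC list, and all 5 of the DE, PP and hILO markers had one in their own list. The DE list also held peaks on 4 hPSC markers, with 4852 input reads against 8934 in hPSC. All 5 PP markers had peaks in hILO too, with 21079 input reads against 15440 in PP. Presence of a peak alone therefore does not separate these neighbouring stages. The hILO list also held peaks on all 5 hepatic markers, with 60514 input reads, against 0 in hPSC and 1 marker in DE and in PP. WT PP held peaks on 4 hepatic markers with 16532 input reads, and A5-KO PP on 3 with 1326. Such reads were counted only inside called peaks, so they do not measure expression. All peaks of the WT PP list held 19034654 input reads, and those of the knockout list 12716287. The paper reports the opposite direction for the knockout, with raised ALB and AFP expression and more ALB-positive cells. The cause of the lower hepatic count was not tested. Of 5 mesenchymal markers between 2 and 5 had a peak in each list, with 341 input reads in WT PP and 695 in the knockout. None of the markers of hPSC, DE, PP, hILO or liver carried a constitutive peak and 1 mesenchymal marker did, and the part of other cell types in the values below was not tested. Input reads inside peaks ranged from 6987612 in PP to 28463998 in hILO. In a pooled sample fewer cells of a type and less RNA per cell cannot be told apart.

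m6A is installed on nascent mRNA by a complex around METTL3 and METTL14, with WTAP, ZC3H13, CBLL1 and RBM15 as partners, and is removed by the demethylases ALKBH5 and FTO. The complex prefers an A within the motif DRACH, in which D is any base but C, R a purine and H any base but G, and GGAC is its most used core. m6A is known to gather near stop codons and in long internal exons, and its readers of the YTH family steer splicing, translation and decay of the marked mRNA.

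The sequences that best stand for the constitutive peaks are those around motifs in the 10 genes with the highest enrichment in whichever stage was lowest. Each line gives 21 bases of GRCh38 on the transcript strand, 5′ to 3′, around the site nearest to the peak midpoint, with the DRACH motif in capitals. A GGAC site was taken where the peak held one.
OGFRL1 (chr6:71301873-71301893, plus strand, CDS): acagagaaGGACAgtaatgct
ACVR2A (chr2:147927298-147927318, plus strand, 3UTR): aagaaatgGGACTctgaactg
RBM25 (chr14:73105989-73106009, plus strand, CDS): aaaaaacgGGACCgagaagaa
MRPL35 (chr2:86212688-86212708, plus strand, 3UTR): ccaaagatGGACTgaagtggg
NSRP1 (chr17:30185093-30185113, plus strand, CDS): agggcgagGGACCaaagagaa
VCAN (chr5:83581136-83581156, plus strand, 3UTR): tgaatggaGGACTtttctgta
RWDD3 (chr1:95244473-95244493, plus strand, CDS): ccaaccagAAACTggcagtgg
ZC3H13 (chr13:45975293-45975313, minus strand, CDS): caagagatGGACAtgatgaaa
ZNF639 (chr3:179334025-179334045, plus strand, CDS): gtgaacatGGACAgtatagcc
MTERF4 (chr2:241095974-241095994, minus strand, 3UTR): tgatggaaGGACTagagcgaa
These windows show where a motif stood in the peak, not which base was methylated, since a peak is wider than a site. RWDD3 was the exception among the 10, with 0 GGAC sites in its peak and 11 DRACH sites, and the window shows the nearest of these.

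The 10 peaks were chosen by their enrichment, so their levels are a description. In OGFRL1, the log2 enrichment of IP over input as given by the authors was 2.93, 2.96, 3.05 and 2.82 in hPSC, DE, PP and hILO. The peak covered 600 nt of the last exon (exon 7 of 7, chr6:71301559-71302158) and its midpoint lay 188 nt before the stop codon. In ACVR2A, an activin type II receptor, the peak spanned the stop codon (chr2:147926161-147927678) and the values were 2.96, 3.29, 2.83 and 2.76. The 4 stages of each gene therefore sat close together, with a range of 0.23 in OGFRL1 and 0.53 in ACVR2A.

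Splicing factors and a matrix gene were among the other 8. RBM25, a splicing regulator, had 2.93, 2.73, 2.94 and 2.91 in hPSC, DE, PP and hILO, on 2514 input reads in hPSC. NSRP1, a nuclear speckle splicing regulator, had 3.21 in hPSC and between 2.58 and 2.78 in the other stages. VCAN, the matrix proteoglycan versican, had 2.80, 3.05, 2.81 and 2.58 in a 3UTR peak (chr5:83580951-83581350). ZC3H13, a subunit of the m6A writer complex itself, had 2.77, 2.73, 2.86 and 2.51 in a coding peak spread over several exons. The mitochondrial ribosomal protein gene MRPL35 had its highest value in PP (3.21) and its lowest in hILO (2.64). The plot of these 10 peaks by stage shows all values between 2.51 and 3.29. The lists were scaled separately, so no order of the stages is read from it.

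**Figure D1:**
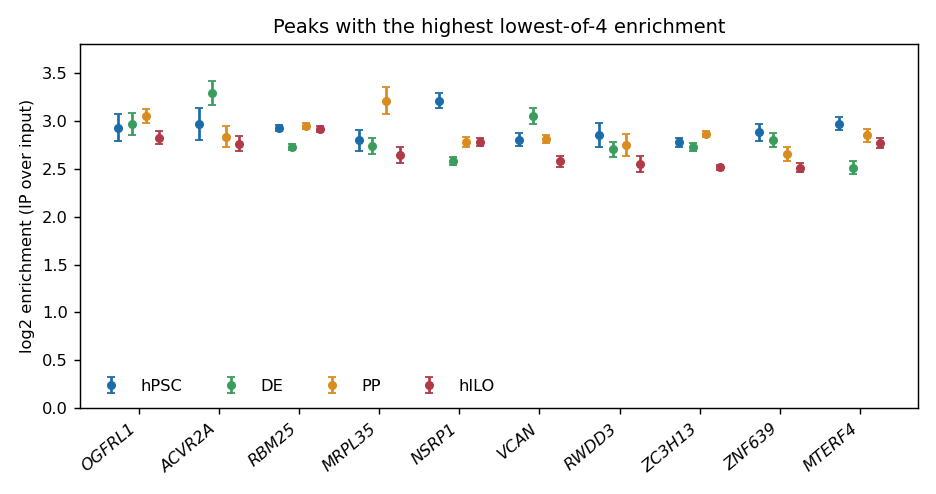
Log2 enrichment of IP over input (y axis) for the 10 constitutive peaks with the highest lowest-of-4 value (x axis), in hPSC, DE, PP and hILO (points), with the counting error of the pooled reads (bars). All 40 values lie between 2.51 and 3.29.

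Presence in the second experiment was the measure most independent of the rule. A peak was called present when peaks of the list covered more than 50% of its span. Of the 6665 constitutive peaks, 4973 (74.6%, Wilson 95% interval 73.6% to 75.6%) were present in WT PP, where 55.6% of all eligible peaks were. In A5-KO PP 4855 (72.8%, 71.8% to 73.9%) were present, where 51.2% of all eligible peaks were. Among the 14383 eligible peaks outside the rule the shares were 46.8% (46.0% to 47.6%) in WT PP and 41.1% (40.3% to 41.9%) in A5-KO PP. These intervals cover counting error only, and peaks on 1 gene are not independent. The level of presence depended on which peaks were counted: with a p below 1e-05 in all lists 46.7% of 3777 constitutive peaks were present in WT PP and 45.6% in the knockout, and with at least 50 input reads in the second experiment 49.5% and 42.8%. The order of the genotypes turned with reciprocal overlap, to 53.0% and 58.2%. Other eligible peaks had lower shares under each of these.

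Presence rose with each further stage in which the hPSC peak was found. Peaks covered in 0, 1, 2 and 3 of DE, PP and hILO were present in WT PP in 34.4%, 48.7%, 59.7% and 74.6% of cases. The corresponding shares in A5-KO PP were 27.1%, 43.7%, 55.2% and 72.8%. WT PP was a second preparation of a stage already in the rule, so peaks covered in PP were also compared among themselves. Of the 2928 that were covered in PP but not constitutive, 61.0% (59.2% to 62.7%) were present in WT PP and 55.5% (53.7% to 57.3%) in A5-KO PP, below the constitutive peaks in both.

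**Figure D2:**
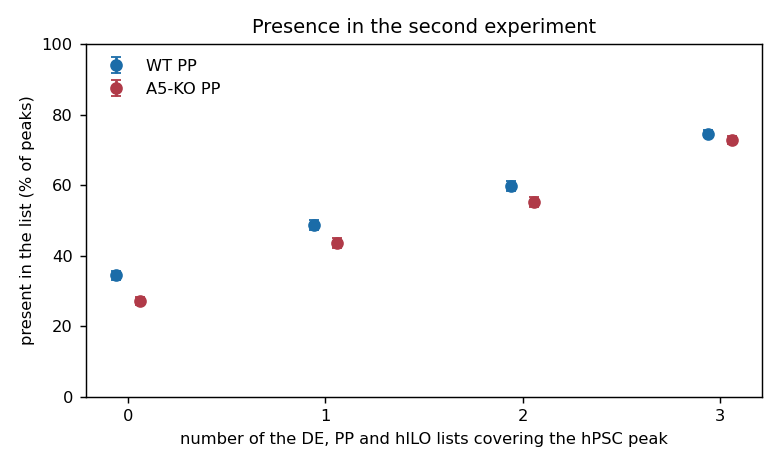
Share of eligible hPSC peaks present in WT PP and A5-KO PP (y axis, % of peaks) by how many of the DE, PP and hILO lists covered them (x axis). Points are shares and bars are Wilson 95% intervals. The share rises from 34.4% to 74.6% in WT PP and from 27.1% to 72.8% in A5-KO PP.

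The comparison held on the same mRNAs. Other eligible peaks on the genes of constitutive peaks were present in 54.5% of cases in WT PP and 46.3% in the A5-KO PP list. In 2560 genes with both kinds of peak, the constitutive peaks had the larger share present in WT PP in 1146 genes and the smaller in 339. For A5-KO PP these counts were 1247 and 336 genes. Constitutive peaks were longer (median exonic length 275 nt against 175 nt) and had lower GC content (45.3% against 53.7%) than other eligible peaks. Within peaks of 150 to 300 nt the shares present in WT PP were 70.2% and 49.8%. At a GC content of 60% to 70% they were 64.8% and 40.2%, and at 30% to 40% GC 79.3% and 51.1%. In peaks with 500 or more input reads in hPSC they were 71.5% and 42.9%.

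Both genotypes mostly held the same constitutive peaks. There were 4393 (65.9%) present in both lists, 580 (8.70%) in WT PP only, 462 (6.93%) in A5-KO PP only and 1230 (18.5%) in neither. Of the other eligible peaks 32.7% were in both lists, 14.1% in WT PP only, 8.42% in A5-KO PP only and 44.8% in neither. In hPSC the knocked-out gene, ALKBH5, had 663 input reads in 3 peaks. In WT PP it had 289 input reads in 4 peaks, and in A5-KO PP 1 input read beside 592 IP reads in 5 peaks. A median peak had 80 input reads in the WT PP list and 33 in the A5-KO PP list. ALKBH5 also carried a constitutive peak of 325 nt in its first exon (chr17:18184315-18184639), which lies in the exon targeted for the knockout. Its log2 enrichment was 1.66, 0.92, 0.76 and 1.16 in hPSC, DE, PP and hILO. Its peaks in the second experiment rested on 1 and 0 input reads, so no level is read from them.

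Enrichment was compared between genotypes where both lists had at least 50 input reads. In 1943 constitutive peaks the median of A5-KO PP minus WT PP was 0.04 on the log2 scale, with quartiles of -0.67 and 0.83. The value rose by 1 or more from WT PP to A5-KO PP in 423 of them (21.8%), where 21.9% of all 3858 eligible peaks compared were, and fell by 1 or more in 337 (17.3%), where 18.8% were. The constitutive peaks were therefore near the background in both directions. The lists were scaled separately by the authors, and no test was possible. Many WT PP and A5-KO PP values were not read as levels, because the matched peak had 0 input reads for 8.83% of the constitutive peaks present in WT PP and for 15.6% of those in A5-KO PP.

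The 5 strongly enriched constitutive peaks without a counterpart in either genotype were taken by rule. They lay in DENND10, SIAE, ANP32A, PNISR and ARMC2. In ANP32A, which encodes an acidic nuclear phosphoprotein, the values were 2.31, 2.27, 2.49 and 2.70 in hPSC, DE, PP and hILO, on at least 1752 input reads in each stage, and 0% of the span was covered in both genotypes. In PNISR, which encodes a nuclear arginine and serine rich protein, the values were 2.26, 2.32, 2.21 and 2.33, and 19.9% and 21.8% of the span were covered. DENND10 had 2.59, 2.44, 2.41 and 2.32 in its 3UTR, with 22.2% covered in both lists. A missing peak can come from the preparation as well as from the cells, which was not tested.

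The position of constitutive peaks on mRNA differed from that of other eligible peaks at both ends of the transcript. On the longest coding isoform, on which 5603 constitutive peaks could be placed, 2.59% of midpoints lay in the 5UTR (2.20% to 3.04%), 54.4% in the CDS (53.1% to 55.7%) and 43.0% in the 3UTR (41.7% to 44.3%). Other eligible peaks had 8.65% in the 5UTR, 54.5% in the CDS and 36.9% in the 3UTR. The CDS shares were nearly equal, and the intervals of the 5UTR and 3UTR shares did not overlap. Within 200 nt of the stop codon lay 28.2% (27.0% to 29.4%) of the constitutive midpoints, 18.0% of the others, and 11.2% of the others on the same genes. Within 200 nt of the start codon lay 5.50% against 11.7%. Of the rest, 444 constitutive peaks lay on genes without a coding isoform and 618 could not be placed, 15 of them matched to no gene and the others with their midpoint outside the longest isoform.

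The share of eligible peaks that were constitutive was highest around the stop codon. It was 28.2% between 3000 and 1000 nt before the stop codon and 44.4% (41.0% to 47.9%) in the last 100 nt before it. After the stop codon it was 45.5% in the first 100 nt and 47.2% (44.3% to 50.3%) between 100 and 200 nt. The intervals on both sides overlapped. Farther along the 3UTR the share fell again, to 33.3% between 400 and 1000 nt and 29.2% between 1000 and 3000 nt. In 2092 genes with both kinds of peak, the constitutive peaks were nearer to the stop codon in 1368 and farther in 724.

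**Figure D3:**
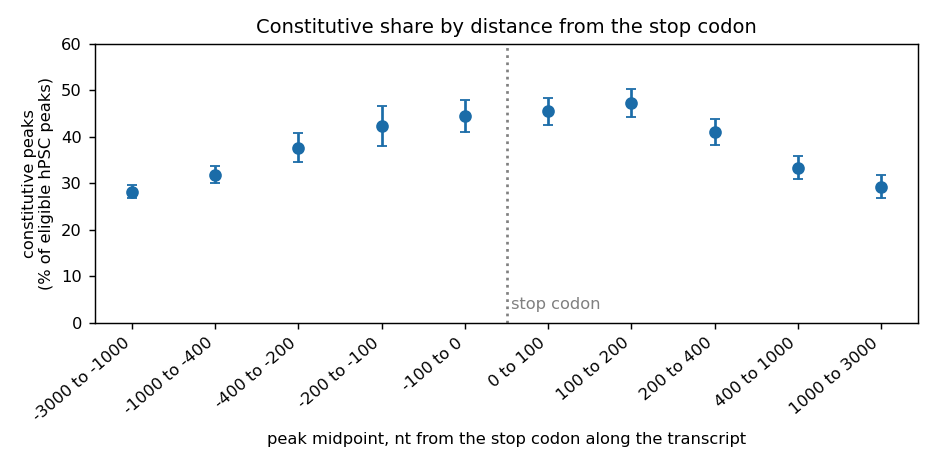
Constitutive peaks as a share of eligible hPSC peaks (y axis, %) by the distance of the peak midpoint from the stop codon along the transcript (x axis, nt, negative before the stop codon). Points are shares and bars Wilson 95% intervals. The share is highest, 47.2%, between 100 and 200 nt after the stop codon, with an interval that overlaps that of the last 100 nt before it.

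The last exon held 61.0% (59.7% to 62.3%) of the constitutive midpoints and 49.6% of the others, and the first exon 3.50% of the constitutive midpoints (196) and 1168 of the 10617 others. Of the 1850 constitutive midpoints in internal exons, 55.1% (52.9% to 57.4%) lay in exons of at least 400 nt, as did 48.6% of the others and 52.1% of the others on the same genes. Fewer constitutive midpoints were under 100 nt from a splice junction, 18.8% against 24.1%. Of all constitutive peaks, 23.4% covered several exons and 4.26% lay on long noncoding RNA genes, against 22.2% and 8.85% of the others.

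There were 145 constitutive peaks with their midpoint in a 5UTR, and 64.8% of them (56.8% to 72.1%) were present in WT PP, against 31.7% of the other eligible 5UTR peaks. MORC2, a chromatin silencing ATPase, had log2 enrichments of 2.38, 2.35, 2.09 and 2.02 in hPSC, DE, PP and hILO in its first exon. DDX6, a helicase of mRNA decay, had 2.36 in hPSC and 1.85 in hILO. RBBP6, a ubiquitin ligase, had 2.75, 2.23, 1.88 and 2.06. The WTAP gene of the writer complex had a 5UTR peak of 675 nt with 2.45, 2.40, 1.57 and 1.95, which was in neither list of the second experiment. In the 5UTR, presence in A5-KO PP was 53.8% (45.7% to 61.7%), against 83.9% (82.4% to 85.3%) for constitutive 3UTR peaks. Other eligible peaks were present in A5-KO PP in 23.0% of cases in the 5UTR and 50.2% in the 3UTR. The same order of regions held in WT PP, where 83.7% of constitutive 3UTR peaks were present.

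The m6A motif was in nearly all constitutive peaks. Of the constitutive peaks 97.3% held 1 or more DRACH sites, of the others 88.9%, with a median of 7 and 3 sites per peak. A longer peak more often holds a site, and constitutive peaks were longer. Per 1000 nt there were 23.4 DRACH sites in constitutive peaks and 20.9 in the others. GGAC, searched on the transcript strand as these 4 letters, was in 70.02% (68.9% to 71.1%) of the constitutive peaks and 56.9% of the others. Its density was nevertheless lower in constitutive peaks, 4.78 against 5.34 per 1000 nt. Within each GC class from 30% to 70% the order was the other way: at 30% to 40% GC constitutive peaks had 2.78 and the others 2.28 GGAC sites per 1000 nt, and at 60% to 70% GC 8.62 and 7.80. The lower density over all peaks thus went with the lower GC content of the constitutive peaks.

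The constitutive share fell steadily with GC content. It was 47.7% (46.0% to 49.5%) of eligible peaks at 30% to 40% GC, 37.7% at 45% to 50% and 15.2% (14.2% to 16.3%) at 60% to 70%. The authors' enrichment also depended on GC, by different amounts in different lists. The deposited log2 enrichment minus the log2 ratio of the deposited counts was lower by 0.18, 0.74, 1.28 and 0.50 in hPSC, DE, PP and hILO in constitutive peaks of 60% to 70% GC than in those of 30% to 40% GC. Its part in the constitutive share was not tested.

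**Figure D4:**
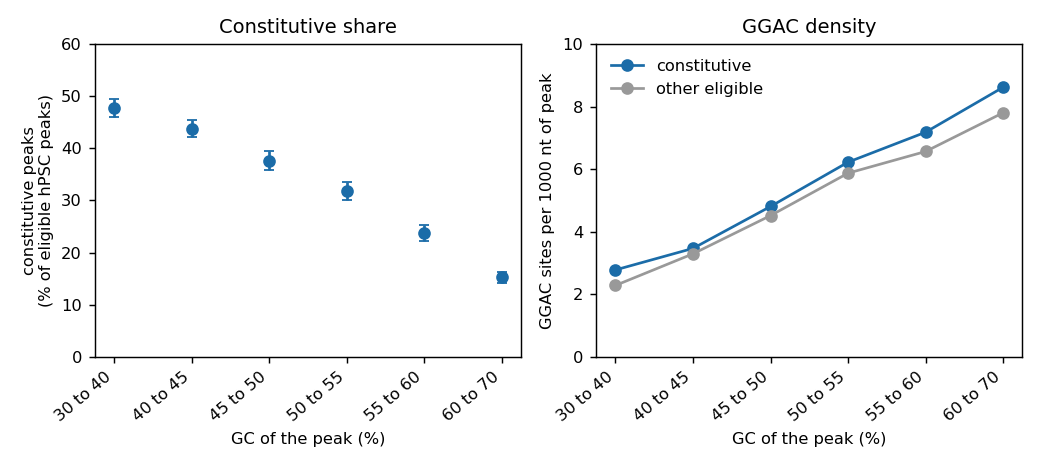
Left, constitutive peaks as a share of eligible hPSC peaks (y axis, %, bars are Wilson 95% intervals) by GC content of the peak (x axis, %). Right, GGAC sites per 1000 nt of peak (y axis) by GC content in constitutive and other eligible peaks. The share falls from 47.7% to 15.2%, and GGAC is denser in constitutive peaks in all 6 GC classes.

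Motifs were densest just before the middle of the peak. DRACH density in constitutive peaks was 27.6 per 1000 nt between 100 and 50 nt before the midpoint and 20.7 and 19.5 per 1000 nt in the outermost bins, 250 to 300 nt before and after it. GGAC rose from 4.06 and 3.23 in the same outer bins to 6.67, and was 3.92 between 50 and 100 nt after the midpoint. The other eligible peaks had the same shape, with 7.11 GGAC sites per 1000 nt between 100 and 50 nt before the midpoint. Among the 18 DRACH pentamers AAACA was the most frequent in constitutive peaks, 9.14% of their DRACH sites against 7.54% in the others, and GGACT made up 6.15% against 7.16%.

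In the stages that the rule used, the values are a description. The median log2 enrichment of the constitutive peaks was 1.86, 1.83, 1.69 and 1.57 in hPSC, DE, PP and hILO, and 1.58 in hPSC for the other eligible peaks. The lists were scaled separately, so positions within a list compare better. Among the peaks with at least 50 input reads in their list, the median constitutive peak stood at percentile 63.9, 61.4, 54.4 and 54.2 in hPSC, DE, PP and hILO. In the lists that the rule did not use, it stood at percentile 58.6 in WT PP and 56.1 in the A5-KO PP list, and the other eligible peaks stood at 50.7 and 52.7.

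The deposited values of 1 peak in the 4 lists were set side by side. The lists were scaled separately and corrected differently for GC content, so a range over them is not read as a difference between stages. Of the constitutive peaks, 4238 had at least 50 input reads in each of the 4 lists, and only these were compared. The range of the 4 values had a median of 0.78, was below 0.5 in 24.0% of the peaks and at least 1 in 32.9%. Across these 4238 peaks the Spearman correlation of the values was 0.48 between hPSC and DE, 0.18 between hPSC and PP, 0.17 between hPSC and hILO, 0.34 between DE and PP, 0.24 between DE and hILO and 0.32 between PP and hILO. Between PP and WT PP, which are separate preparations of 1 stage, it was 0.15 over 2552 peaks, below all of these, so a low value is not read as a difference between stages. The peaks share genes and libraries, so this is a description with no test. The pair hPSC and DE had the highest value of these. The lists were corrected differently for GC content, so no likeness of stages is read from it.

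The smallest ranges were in CNOT1, DTNBP1, ZRANB2, RANBP2 and TUT1. In CNOT1, the scaffold of the CCR4-NOT deadenylase, the log2 enrichment was 1.16, 1.13, 1.13 and 1.12 in hPSC, DE, PP and hILO. In the nucleoporin gene RANBP2 a 1050 nt stretch of the CDS gave 1.87, 1.84, 1.83 and 1.82. The CNOT1 peak held 0 DRACH sites, and 0% of its span was covered in either list of the second experiment. The splicing factor gene ZRANB2 gave 1.77, 1.72, 1.73 and 1.76. The largest range of the 5, in TUT1, was 0.065, less than the counting error of a median constitutive peak in hPSC (0.11).

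The largest ranges were in LBX2-AS1, SRA1, PDIA6 and a locus shared by PIP5K1B and PABIR1. LBX2-AS1, a long noncoding RNA, had 1.75, 3.51, 1.33 and 0.64 in hPSC, DE, PP and hILO. SRA1, a steroid receptor RNA activator, had 3.69, 2.53, 1.32 and 1.15. PDIA6, a protein disulphide isomerase, had 1.51, 1.68, 3.28 and 0.76, with input reads of 1646, 7122, 161 and 571. PABIR1 lies inside PIP5K1B on the same strand, and the values of both in DE (2.41), PP (3.03) and hILO (0.65) belong to the same peaks, so they count as 1 observation.

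Most genes had 1 constitutive peak, and a few had many. Of the 4547 genes, 3166 (69.6%) had 1, 957 had 2 and 63 had 5 or more. In 1987 genes all eligible peaks were constitutive. The spans of 105 constitutive peaks overlapped another one, and 15 were matched to no gene. BOD1L1 and CENPF had 12 each, and ANKRD11, GOLGB1, PRRC2C, VCAN and ZC3H13 had 9 each. In some of them 1 long exon held most of the peaks. In BOD1L1, a replication fork protection factor, 9 of the 12 lay in exon 10 of 26, an exon of 6139 nt. In VCAN 7 of the 9 lay in exon 8 of 15 (5262 nt), and in GOLGB1, a giant Golgi protein, 6 of the 9 lay in exon 13 of 22 (5189 nt). In ANKRD11 exon 9 of 13 (6578 nt) held 4, and 4 of its 9 could not be placed on the longest isoform. The exon with most held 5 of 12 in CENPF, and 2 of 9 in PRRC2C and in ZC3H13. In PRRC2C and ZC3H13 all 9 eligible peaks were constitutive.

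The peaks of 1 gene did not all carry the same level. In CENPF, a kinetochore protein, the hPSC values of the 12 peaks ran from 1.31 to 2.33, and 10 were present in WT PP and 9 in the A5-KO PP list. In BOD1L1 they ran from 1.57 to 2.32, and 10 were present in each list. In VCAN they ran from 1.39 to 2.80 and all 9 were present in both lists. A single broad peak of the other list often spanned several: 16.4% of the constitutive peaks present in WT PP shared their matched peak with another constitutive peak, as did 8.91% in hILO.

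The m6A machinery was among the marked genes. Of 8 genes of the writer complex with an eligible peak, 5 had a constitutive one, and of 8 readers 6, where 43.9% of all genes did. By peak, 16 of 26 (61.5%) were constitutive on the writer genes, and on the reader genes 7 of 20 (35.0%), near the 31.7% of all eligible peaks. ZC3H13 had 9 and WTAP, the regulatory subunit that holds the complex together, had 4. METTL14 had 1 in its 3UTR, with log2 enrichments of 2.48, 2.17, 1.17 and 1.63 in hPSC, DE, PP and hILO, and it was present in WT PP and A5-KO PP. RBM15 and CBLL1 had 1 each. The reader genes were YTHDF2 with 2 and YTHDF1, YTHDC1, YTHDC2, IGF2BP2 and IGF2BP3 with 1 each. The coding peak of YTHDF2 had 1.84, 2.86, 2.19 and 1.45 and its 3UTR peak 1.64, 2.63, 1.57 and 2.02, with as few as 20 input reads (DE) under the first and 31 (PP) under the second. The range over the 4 stages ran from 0.64 in YTHDC2 to 2.40 in IGF2BP3, where the PP value rested on 2 input reads. All 7 reader peaks were present in WT PP and 6 in the A5-KO PP list.

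The supply of the methyl donor S-adenosylmethionine is tied to m6A through MAT2A, its synthase, and METTL16, which methylates the MAT2A mRNA. Both had 1 constitutive peak. The MAT2A peak covered 175 nt of the 3UTR (chr2:85543797-85543971), 114 nt after the stop codon, and had 2.01, 2.01, 2.27 and 1.53 in hPSC, DE, PP and hILO, the PP value on 15 input reads. The METTL16 peak lay in the last exon with 2.46, 2.11, 1.97 and 2.33. Its span was covered over 0% in WT PP and over 87.0% in A5-KO PP, there by a peak with 1 input read.

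Chromatin regulator genes were above the background of 43.9% of genes. A gene with more eligible peaks has more occasions to hold a constitutive one, so the shares by peak are given too. Of 21 KMT2 and SET methyltransferase genes with an eligible peak 19 had a constitutive one, and 40.6% of their 133 eligible peaks were constitutive. SETD2, which trimethylates lysine 36 of histone H3, had 8, and KMT2D and SETD5 had 5 each. Of 17 histone acetyltransferase and bromodomain genes 14 had one (BAZ1B, BPTF and KAT6B with 4 each), of 25 BAF and CHD remodelers 18 (CHD6 with 6), and of 22 Polycomb genes 14 (ASXL1 with 4). In that order, 38.75% of 80, 44.6% of 101 and 40.4% of 52 eligible peaks were constitutive, where 31.7% of all eligible peaks were. In CHD6 a peak at the stop codon had 2.75, 2.55, 2.06 and 2.42 in hPSC, DE, PP and hILO, of which the last 3 come from peaks that also match its neighbour. The midpoint lay in the CDS in 44 of 48 placed peaks of the KMT2 and SET genes, 28 of 31 of the acetyltransferase and bromodomain genes and 33 of 38 of the remodelers. Among the Polycomb genes it did in 13 of 21 (61.9%), closer to the 54.4% of all constitutive peaks. In these 4 groups between 71.1% (remodelers) and 90.5% (Polycomb) of the constitutive peaks were present in WT PP, where 74.6% of all were. In A5-KO PP 27 of 45 peaks of the remodelers and 17 of 21 of the Polycomb genes were present, the lowest and highest share of the 4 groups, where 72.8% of all were.

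RNA processing genes were also above the background of 43.9% by gene, and by peak above the 31.7% of all eligible peaks. Of 47 spliceosome and SR protein genes 36 had a constitutive peak, and 50.4% of their 131 eligible peaks were constitutive. SRRM2 had 5, and SRRM1, HNRNPU and DHX38 had 4 each. Of their 66 constitutive peaks 51.5% were present in WT PP and 43.9% in the A5-KO PP list, where 74.6% and 72.8% of all constitutive peaks were, and the difference was not tested. In SRRM2 only 1 of the 5 was present in WT PP. Of 25 genes of CCR4-NOT and mRNA decay 19 had one, among them UPF2 with 3, and 46.7% of their 60 eligible peaks were constitutive. The UPF2 peak in the 3UTR had 2.47, 1.99, 1.11 and 1.73 in hPSC, DE, PP and hILO.

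Protein turnover and transcription factor genes lay closer to the background by gene. By peak the constitutive shares were 37.2% for ubiquitin genes, 42.6% for autophagy genes and 36.5% for the MYC, AP-1 and Kruppel-like factors, where 31.7% of all eligible peaks were constitutive, so autophagy was no closer to it than the KMT2 and SET genes (40.6%). Of 54 ubiquitin E2 and E3 genes 29 had a constitutive peak, with UBE3A and UBE3B at 3, and 90.5% of their 42 peaks were present in each genotype, where 74.6% and 72.8% of all constitutive peaks were. Of 34 autophagy genes 21 had one, with WIPI2 and RB1CC1 at 4. Of 24 MYC, AP-1 and Kruppel-like factor genes 14 had one. The JUN peak, 124 nt after the stop codon, had 1.91, 1.90, 0.87 and 1.41 in hPSC, DE, PP and hILO. MYC had 2, of which the one after the stop codon had 2.61, 2.88, 1.52 and 2.21. Its values in PP and hILO (24 input reads) come from peaks that also match the other MYC peak. The KLF7 3UTR peak had 2.27, 2.01, 2.08 and 2.21.

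Ribosomal protein genes lay below the background, and cell cycle genes lay near it by peak. Of 30 ribosomal protein genes with an eligible peak 5 had a constitutive one, 18.4% of their 49 peaks, and of 49 cell cycle genes 18 had one, 29.3% of their 92 peaks, where 31.7% of all eligible peaks were constitutive. SMC3, a cohesin subunit, had 4 and SMC1A had 3. Ribosomal protein genes have many near-identical pseudogene copies, so their peaks are uncertain. Of 11 housekeeping genes 4 had one. EEF2, the elongation factor, had 25090 input reads in hPSC in a coding peak of 50 nt with 1.63, 1.61, 1.57 and 1.79 in hPSC, DE, PP and hILO, so a peak was called at very high input as well. None of the 4 stage marker genes with an eligible peak had a constitutive one, in 9 peaks. The gene lists differ in peaks per gene, length and GC, and no list was tested.

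Genes named ZNF and a number, most of them zinc finger proteins, were looked at after their values had been seen. Of 344 with an eligible peak 207 had a constitutive one, and 374 of 906 peaks (41.3%) were constitutive, where 43.9% of all genes had one and 31.7% of all eligible peaks were constitutive. Of these 374 peaks 88.5% were present in WT PP and 88.8% in the A5-KO PP list, where 74.6% and 72.8% of all constitutive peaks were. Their median length was 350 nt and their median GC content 41.7%, longer and lower than in all constitutive peaks. Long noncoding RNA genes with constitutive peaks numbered 251, with 5 on SNHG14, 4 on LINC00205 and 3 on FTX. TUG1, best known as a noncoding RNA and typed as protein coding in the annotation used, had 8, of which 6 were present in WT PP and 8 in the A5-KO PP list.

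The limit of 50% of the span decided the calls at the edge of the set. Just inside it, JAKMIP2 was covered over 50.1% in PP, LIG1 over 50.1% in hILO and ZNF628 over 50.8% in PP. Just outside it, FAAP20 and DHRS3 were covered over 50% in PP and CLSTN1 over 50% in DE. Of the constitutive peaks 1603 (24.1%) were covered over the whole span in all 3 other lists, and 323 had the same start and end in all 4 lists. PP was the stage most often missing: 2319 eligible peaks failed in PP only, against 1006 in DE only and 1065 in hILO only. The PP list also held the fewest peaks of all lists (29083) and the fewest input reads inside peaks (6987612). In constitutive peaks its enrichment depended most strongly on GC content among the stages of the rule. The part of list size, depth and GC in this count was not tested, so no loss of m6A at PP is read from it. Peaks missing in PP only were present in WT PP in 57.7% of cases, those missing in DE only in 54.7% and those missing in hILO only in 69.0%.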

How the data were processed

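Peaks were taken from the 6 deposited lists, 1 per population. The authors used fastp for trimming, HISAT2 for alignment (GRCh38) and exomePeak2 for calling peaks on all libraries of a population together. The version of exomePeak2 was not given in the sources used here. Each list holds the deposited counts of IP and input reads per peak, the authors' log2 enrichment of IP over input, and the authors' p-value. The counts are pooled over libraries, and whether they are sums or means was not stated, so counting errors (0.5 reads added) are approximate. The authors' enrichment includes a correction that varied with GC content.

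The members and gene lists were chosen with earlier results of these data known. Overlap used spans on the same strand. For position and motifs, spans were reduced to the exons of their gene in GENCODE 44 (GRCh38), and the midpoint was placed on the longest coding isoform. A peak was compared with the peak of another list sharing most bases. Named genes were taken by rule: the most constitutive peaks (5 genes and ties, 2 to 4 per gene list), the 10 highest lowest-of-4 enrichments, the 5 smallest and 5 largest ranges, the 5 highest in neither list of the second experiment, and 3 on each side of the limit. MORC2, DDX6, RBBP6, METTL14, JUN, YTHDC2, IGF2BP3, TUG1, the ZNF genes and the long noncoding RNA genes were chosen after their values were seen. Shares have Wilson 95% intervals, which cover counting error only. No test was made, because the lists hold no value per library. PCR copies are not independent molecules. Alternatives covered the overlap rule, the input minimum, both thresholds, the first list, isoform, motif and length. Scripts used Python 3.11.15, pandas 2.3.3, scipy 1.17.1 and pysam 0.24.0, and were tested on simulated data.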

Additional observations from a re-analysis of the deposited data

How the results depend on the processing

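In all 20 values of presence computed under 10 alternatives, constitutive peaks were present more often than other eligible peaks. Of 60 values 36 moved, and 24 stayed within the interval of the reported share, within 1.5 times the reported number of peaks (4619 to 9124 against 6665) or, for the stage medians, within the counting error of a median peak. Any overlap of 1 base gave 43.3% of eligible peaks as constitutive, of which 78.7% were present in WT PP, 78.6% in A5-KO PP and 55.9% in the CDS. Reciprocal overlap gave 21.9%, with 53.0% in WT PP, 58.2% in A5-KO PP, 51.8% in the CDS and 73.0% with GGAC, so the order of the genotypes turned. At least 20 input reads gave 28.7%, with 68.6% holding GGAC. At least 200 gave 3261 peaks (37.4%), with 71.6% in A5-KO PP, 56.5% in the CDS and 72.5% with GGAC. An IP/input ratio of at least 2 in all lists gave 24.7%, 70.3%, 68.9%, 55.9% and 68.5% for the share, WT PP, A5-KO PP, CDS and GGAC. A p below 1e-05 in all lists gave 3777 peaks (19.8%), 46.7% in WT PP (30.5% for other eligible peaks), 45.6% in A5-KO PP (27.4%) and 57.1% in the CDS. Starting from hILO gave 30.2%, with 76.2% in WT PP and 74.97% in the A5-KO PP list. GGACT in place of GGAC was in 38.2%. Chosen after seeing the data, peaks of 150 to 300 nt gave 70.2%, 67.9%, 50.9% and 63.9% for WT PP, A5-KO PP, CDS and GGAC, and only second-experiment peaks with at least 50 input reads gave 49.5% for WT PP (29.7% for other eligible peaks) and 42.8% for A5-KO PP (21.9%). Where fewer peaks entered a list, lower coverage follows from the alternative itself, and for the other changes the cause was not tested. No paired analysis was possible because each list gives pooled reads without values per library, and leaving out replicates was not run for the same reason. Depth limits single peaks, with a median of 84 input reads at the matched peak in A5-KO PP, 129 in WT PP and 131 in PP.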
